A study of Mus musculus with 6 samples.

Results

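BAFF, APRIL, CD40 and the lymphotoxins form a branch of the tumour necrosis factor (TNF) family that B cells and the lymphoid stroma of the spleen use to exchange signals. The 9 genes described here were taken by symbol from a count table of 40808 mouse gene IDs, and all 9 were found. They are the ligand genes Tnfsf13b (BAFF), Tnfsf13 (APRIL), Lta and Ltb (lymphotoxin alpha and beta), and the receptor genes Tnfrsf13b (TACI), Tnfrsf13c (the BAFF receptor), Tnfrsf17 (BCMA), Cd40 and Ltbr (the lymphotoxin beta receptor). The table holds 6 libraries of mRNA 3′ ends from the spleens of mice that had received bone marrow; the labels name the RNA as that of leukaemia cells of the spleen. In 3 libraries (replicates 4, 5 and 6) the label reads NO_DOX, with treatment "no", and in 3 (replicates 10, 11 and 12) ON_DOX, with treatment "Dox". The labels do not give the strain, age or sex of the mice, the gene that Dox acts on, its dose and duration, or whether animals were pooled. The title of the study places it in the control of NOTCH by the UVRAG, ITCH and ESCRT proteins. The labels do not say that each library came from a separate mouse, so p-values measure the spread between these libraries.

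As background, BAFF is made mainly by myeloid and stromal cells and keeps mature B cells alive through the BAFF receptor; it also binds TACI and BCMA, which are the receptors of APRIL. CD40 on B cells and dendritic cells is engaged by CD40 ligand on helper T cells. Lymphotoxin alpha and beta assemble on the surface of lymphocytes and bind the lymphotoxin beta receptor of stromal cells, which then make the chemokines that hold B and T cell areas together. The BAFF receptor, CD40 and the lymphotoxin beta receptor all release the kinase NIK (Map3k14) from the adaptor TRAF3 and so open the alternative arm of NF-kB.

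With Dox, 6 of the 9 genes were higher: Tnfsf13b, Lta, Ltb, Tnfrsf13b, Tnfrsf13c and Cd40. The fold changes were 3.79 for Ltb, 3.82 for Tnfrsf13c and 5.47 for Tnfrsf13b; those of Tnfsf13b, Lta and Cd40 were larger but rest on 0 to 15 counts in a library without Dox. Ltbr, the receptor of the stromal side, did not pass the threshold, and its groups overlapped. Tnfsf13 and Tnfrsf17 had too few counts to be tested. None of the 7 tested genes was lower past the threshold. The threshold was an adjusted p of 0.05 (edgeR quasi-likelihood test, Benjamini-Hochberg over the 14110 tested genes), and at that threshold 45.6% of all tested genes differed, 23.6% higher and 22.1% lower with Dox. Libraries of the 2 groups were apart for 6 of the 7 tested members, each time higher with Dox, where 59.6% of all tested genes had groups apart and 30% were apart and higher. Tnfsf13b, Lta and Cd40 passed the filter on low counts only because of their counts with Dox, so the counts of members called or apart are partly fixed by that filter, and no median over the members is given. With at least 10 counts in every library, 4 members were tested and 3 of them were higher (Ltb, Tnfrsf13b and Tnfrsf13c). Under that filter 2740 of all 10131 tested genes were higher and 2552 lower.

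The libraries held 5541486 to 7729988 counts without Dox and 6498193 to 8725767 with Dox, so that 3 counts stood for 0.34 to 0.54 CPM (counts relative to the library total). Libraries of the groups differed in more than the label. Together, 4 Y-linked genes had 545 to 801 counts without Dox and 0 with Dox, and Xist had 193 to 324 and 3347 to 5669, so Dox and sex-linked expression cannot be told apart. The biological coefficient of variation was 0.196 without Dox and 0.515 with Dox, so a mean with Dox is less precise at the same count. Scaling by library size alone moved the median over all genes up by 0.31 (log2) and raised the part of the calls that were higher with Dox from 51.6% to 64.3%; the 6 members stayed higher under each scaling tried.

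Marker lists of the cells that make or read these signals moved with the groups. The summed level of 18 B cell markers was 79.7 to 83.9 normalized CPM without Dox and 2658 to 2865 with Dox, and 18 of 18 were higher; Cd72 was at 0 in the 3 libraries without Dox. The sum of 16 T cell markers went the other way, from 3611 to 3898 normalized CPM without Dox to 307 to 401 with Dox, with 14 of 16 lower and none at 0. Markers of monocytes, macrophages and dendritic cells summed to 323 to 408 and 605 to 790 normalized CPM, with 9 of 15 tested higher and 2 lower. Neutrophil markers rose from 54.6 to 71.3 to 2250 to 2392 normalized CPM in sum, with 12 of 12 higher and Ly6g at 0 in each library without Dox. The 13 markers of stroma and follicular dendritic cells summed to 516 to 582 and 1144 to 1279 normalized CPM, with 6 higher and 3 lower. Without Clu and Mfge8 the sums of the other 11 overlapped, at 460.03 to 512 and 447 to 632 normalized CPM. The summed level of 7 plasma cell markers overlapped between groups, at 310 to 337 and 285 to 315 normalized CPM, but single markers moved: 3 were higher (Prdm1, Mzb1 and Irf4) and 2 lower (Sdc1 and Jchain). Erythroid markers summed to 94356 to 104403 normalized CPM without Dox and to 133370 to 143368 with Dox, with 5 of 10 higher and 2 lower, and haemoglobin genes took 8.61% to 9.04% and 14.1% to 15.9% of all counts. In bulk RNA more cells of a type and more RNA per cell cannot be told apart, and the part of these markers in the changes below was not tested beyond the within-library ratios given later.

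**Figure D1:**
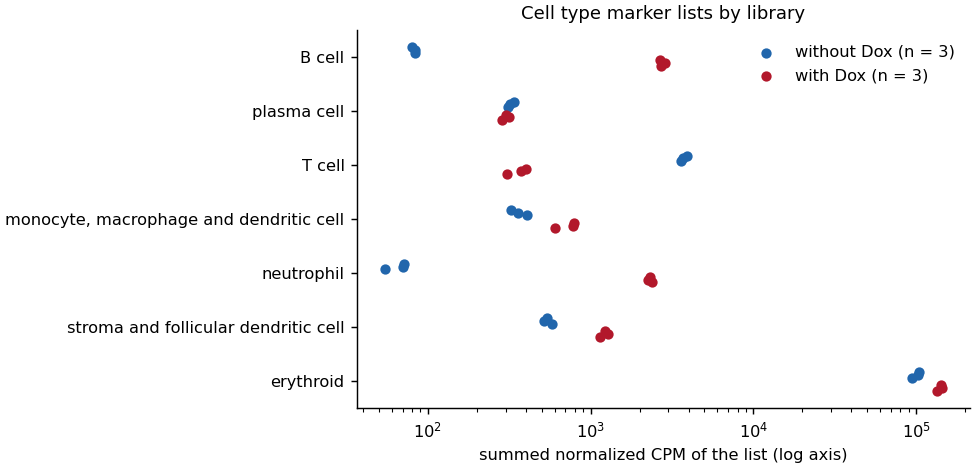
Summed normalized CPM of 7 cell type marker lists (log axis), with 1 point per library and 3 libraries per group. B cell and neutrophil sums lie higher with Dox, the T cell sum lies lower (3611 to 3898 against 307 to 401), the erythroid sum lies higher, and the plasma cell sums overlap.

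Upstream stretches of 3 genes are shown because they set Ltb and Tnfrsf13c, which rose by nearly the same amount, beside Ltbr, which did not pass the threshold. They are RefSeq sequences of build GRCm38.p6, written 5′ to 3′ on the strand of the gene. In the Ltb stretch (chr17:35194350-35194438, plus strand) capitals mark a match to the NF-kB consensus, which begins 87 bases before the RefSeq start of the gene. In the stretches of 120 bases before Tnfrsf13c (chr15:82224381-82224500, minus strand) and Ltbr (chr6:125313886-125314005, minus strand) capitals mark CG dinucleotides.
Ltb: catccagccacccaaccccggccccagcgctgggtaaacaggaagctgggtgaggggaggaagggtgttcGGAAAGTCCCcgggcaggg
Tnfrsf13c: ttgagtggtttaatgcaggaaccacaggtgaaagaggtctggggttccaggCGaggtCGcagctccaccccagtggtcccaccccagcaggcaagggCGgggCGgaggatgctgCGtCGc
Ltbr: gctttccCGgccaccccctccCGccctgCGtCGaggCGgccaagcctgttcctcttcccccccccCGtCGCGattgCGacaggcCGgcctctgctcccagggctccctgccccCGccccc

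Promoter sequences were matched for 8 of the 9 genes; Cd40 had no entry. In the 250 bases before the start used by each promoter entry, 3 motifs were searched on both strands. They were the NF-kB consensus by name, the octamer (ATGCAAAT) and PU.1 (GAGGAAGT). For Tnfsf13b, Lta, Tnfrsf13b and Tnfrsf17 that start lies inside the RefSeq span of the gene given below. Their windows therefore lie wholly or mostly within the gene, and the bases before its RefSeq start were searched little or not at all. The match before Ltb was the only 1 in the windows searched for the 8 genes, and it overlapped no other motif. Among all 32851 promoter windows, 7.25% held the NF-kB consensus, 1.60% the octamer and 2.44% the PU.1 motif. Windows of the 5 risen genes with a sequence held 5 to 10 CG dinucleotides (Tnfsf13b 5 and 6 at its 2 starts, Ltb 6, Tnfrsf13b 8, Lta 9, Tnfrsf13c 10), near the median of 6 for all promoters. The Ltbr window held 18, more than 78.3% of all promoters. The other two members not called higher had as few as the risen genes or fewer, with 5 for Tnfrsf17 and 3 for Tnfsf13, so CG counts did not separate the members called higher from the rest. These matches and counts describe the letters of the windows only.

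Among the ligands, Tnfsf13b (Entrez gene 24099, chromosome 8, 10006229 to 10036000, plus strand) encodes BAFF, the survival factor of mature B cells. Its counts were 6, 2 and 3 without Dox against 46, 128 and 11 with Dox (replicates in the order given above). In normalized CPM these are 0.90, 0.41 and 0.51 against 6.26, 13.2 and 1.45. The groups did not overlap, but the level in Dox replicate 12 lay close to the libraries without Dox and far under replicate 11. The log2 fold change was 3.47 ± 0.95 (SE, n = 3 per group; adjusted p = 0.013, edgeR). The ratio of the groups' summed counts was 11.96, with an exact 95% interval of 6.53 to 24.4 that covers counting error only. Leaving out Dox replicate 11 lowered the log2 fold change to 2.60 (adjusted p = 0.067, edgeR). The call was also lost without replicate 5 (adjusted p = 0.063, edgeR), without replicate 6 (adjusted p = 0.062, edgeR) and with limma-voom (adjusted p = 0.19). It was the only member of the 6 to lose its call at 0.05 in an alternative that tested it.

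Tnfsf13 (Entrez gene 69583, chromosome 11, 69682577 to 69685554, minus strand) encodes APRIL, the second ligand of TACI and BCMA. It had 1 count in each library without Dox and 0 in each with Dox, at or under the floor of 3 counts in all 6, so no fold is given. Its whole length lies inside the fusion gene Tnfsfm13 (chromosome 11, 69682577 to 69696098, minus strand), and both end at the same base. Tnfsfm13 had 0 counts in all 6 libraries. On the other strand Tnfsf13os covers all 2978 bases of the gene, with 5, 3 and 2 counts without Dox against 0, 0 and 8 with Dox. How reads that fall in several genes were assigned is not given in the sources used here, so the level of APRIL mRNA cannot be read from this table.

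Lta (Entrez gene 16992, chromosome 17, 35203165 to 35205578, minus strand) encodes lymphotoxin alpha, which forms a soluble trimer alone and a membrane complex with lymphotoxin beta. It went from 3, 3 and 1 counts without Dox to 77, 167 and 66 with Dox, or 0.45, 0.61 and 0.17 against 10.5, 17.2 and 8.70 normalized CPM. Each library with Dox was above each library without. The log2 fold change of 4.85 ± 0.68 (SE, n = 3 per group; adjusted p = 0.00029, edgeR) rests on no more than 3 counts in a library without Dox. It was above that of Cd40 here but below it with limma-voom (4.73 against 5.21) and without replicate 4 (4.90 against 5.03), so the order of the 2 genes is not settled. The ratio of summed counts was 31.5 (exact 95% interval 15.1 to 79.0, counting error only). Of the 2249 genes within 0.5 log2 CPM of its average level, 2.001% had a log2 fold change at least as high. That share is partly set by the filter on low counts, which Lta passed only through its counts with Dox. It is a description only.

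Ltb (Entrez gene 16994, chromosome 17, 35194507 to 35196305, plus strand) encodes lymphotoxin beta, which anchors the complex in the membrane. Its normalized CPM was 11.9, 9.12 and 11.7 without Dox against 38.0, 40.7 and 46.0 with Dox. The groups were tight and well apart. The log2 fold change was 1.92 ± 0.25 (SE, n = 3 per group; adjusted p = 0.00021, edgeR). Ltb and Lta lie in 1 cluster with Tnf between them (chromosome 17, 35199367 to 35202007). Tnf, the founding cytokine of the family, had 9, 9 and 0 counts without Dox against 11, 37 and 12 with Dox and missed the threshold, with a value of 1.12 ± 1.18 for the log2 change (SE; adjusted p = 0.47, edgeR). That value was 0.45 without replicate 6, 0.52 without Dox replicate 11 and 1.93 with limma-voom, and it missed the threshold each time (adjusted p = 0.80, 0.78 and 0.28). Because 3′ libraries give about 1 fragment per transcript whatever its length, counts of Ltb and Lta can be set side by side in a library. The log2 ratio of Ltb to Lta was 4.52, 3.70 and 5.53 without Dox against 1.85, 1.24 and 2.39 with Dox, so the 2 ligands were closer in level with Dox (difference -2.76, exact two-sided permutation p = 0.1, the smallest that 3 against 3 allows, adjusted p = 0.14 over 10 ratios). Without Dox this ratio rests on 1 to 3 counts of Lta in a library.

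**Figure D2:**
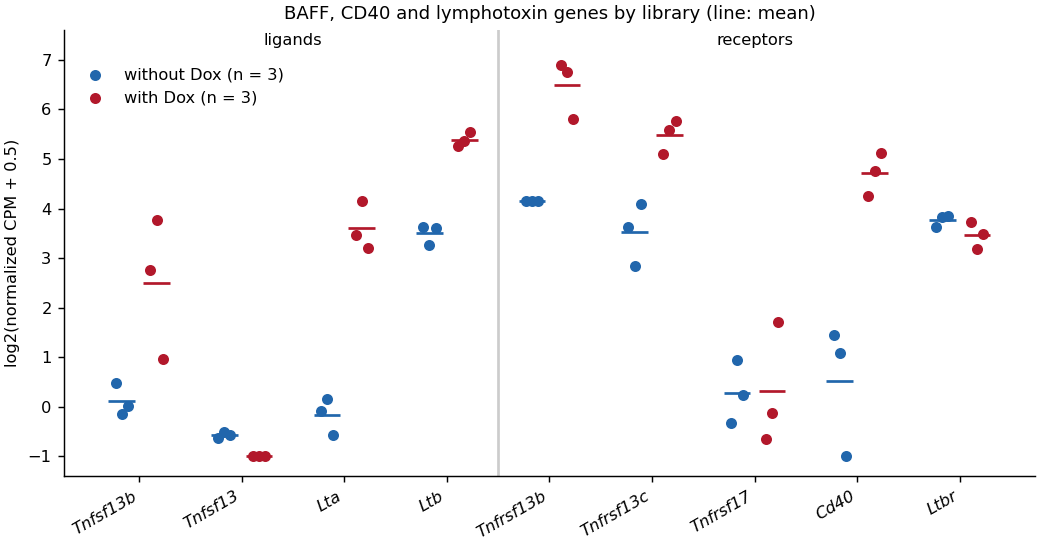
Level of each of the 9 genes as log2(normalized CPM + 0.5), with 1 point per library, 3 libraries per group, and a line at the mean. The groups are apart for Tnfsf13b, Lta, Ltb, Tnfrsf13b, Tnfrsf13c and Cd40, overlap for Tnfrsf17 and Ltbr, and lie at the floor for Tnfsf13.

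Among the receptors, Tnfrsf13b (Entrez gene 57916, chromosome 11, 61126283 to 61153170, plus strand) encodes TACI, which binds BAFF and APRIL and supports antibody class switching. Its mean level with Dox was the highest of the members. Its normalized CPM was 17.2, 17.2 and 17.3 without Dox against 119, 108 and 55.5 with Dox. Libraries without Dox were nearly identical, and replicate 12 was the lowest of those with Dox. The log2 fold change was 2.45 ± 0.29 (SE, n = 3 per group; adjusted p = 0.00012, edgeR). In RefSeq its 3′ end shares 1390 bases with Usp22, which is read from the other strand. Usp22 had 130, 119 and 193 counts without Dox against 257, 239 and 121 with Dox, and whether counting used the strand is not given in the sources used here.

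Tnfrsf13c (Entrez gene 72049, chromosome 15, 82221742 to 82224380, minus strand) encodes the BAFF receptor, the survival receptor of resting B cells. Its normalized CPM was 11.9, 6.69 and 16.4 without Dox against 33.8, 47.2 and 53.8 with Dox. The lowest library with Dox (33.8) lay above the highest without (16.4). The log2 fold change was 1.93 ± 0.35 (SE, n = 3 per group; adjusted p = 0.0014, edgeR), next to that of Ltb. Of the 2361 genes near its level, 9.32% had a log2 fold change at least as high.

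Cd40 (Entrez gene 21939, chromosome 2, 165055614 to 165071654, plus strand) encodes the co-stimulatory receptor of B cells and dendritic cells. It had 15, 8 and 0 counts without Dox against 137, 259 and 260 with Dox, or 2.24, 1.62 and 0 against 18.6, 26.7 and 34.3 normalized CPM. It was the receptor with the highest fold change, a log2 fold change of 4.34 ± 0.72 (SE, n = 3 per group; adjusted p = 0.00088, edgeR). Its size rested in part on 2 libraries: it was 3.66 without replicate 6, which had 0 counts, and 5.03 without replicate 4 (adjusted p = 0.00086 and 0.0034, edgeR). With limma-voom it was 5.21 (adjusted p = 0.012). Among 2530 genes near its level, 1.38% had a log2 fold change at least as high. As for Lta, that share is partly set by the filter on low counts, which Cd40 passed only through its counts with Dox.

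Tnfrsf17 (Entrez gene 21935, chromosome 16, 11313232 to 11320074, plus strand) encodes BCMA, the receptor that plasma cells depend on. It had 2, 7 and 4 counts without Dox against 1, 4 and 21 with Dox. Most of the counts with Dox came from replicate 12, the groups overlapped, and the gene did not pass the filter on low counts. When no such filter was applied its adjusted p was 0.92 (edgeR), with a log2 fold change of 0.32 ± 2.01 (SE, n = 3 per group).

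Ltbr (Entrez gene 17000, chromosome 6, 125306571 to 125313885, minus strand) encodes the lymphotoxin beta receptor. Its normalized CPM was 11.9, 13.8 and 13.9 without Dox against 12.8, 8.54 and 10.7 with Dox. The groups overlapped. The log2 fold change was -0.31 ± 0.33 (SE, n = 3 per group; adjusted p = 0.48, edgeR), and it was 0.0013 when libraries were scaled by size alone. Ltb and Ltbr had similar counts without Dox, with a log2 ratio of 0, -0.59 and -0.25. With Dox the log2 ratio was 1.56, 2.24 and 2.10, so ligand counts exceeded receptor counts in each of the 3 libraries (difference 2.25, exact two-sided permutation p = 0.1, adjusted p = 0.14 over 10 ratios).

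Member counts were then set against B cell markers of the same library, a measure that needs no scaling between libraries. The members did not all follow the markers. The log2 ratio of Tnfrsf13c to the summed counts of 18 B cell markers was -2.73, -3.63 and -2.34 without Dox against -6.30, -5.92 and -5.64 with Dox. For Ltb it was -2.73, -3.19 and -2.83 without Dox against -6.13, -6.14 and -5.87 with Dox. For Tnfrsf13b, a ratio added after the data were seen, it was -2.21, -2.28 and -2.27 against -4.48, -4.72 and -5.60. These 3 genes therefore had 6.42 to 8.75 times fewer counts per B cell marker count with Dox than without, with no overlap between groups. Each of these differences had an exact two-sided permutation p = 0.1 and an adjusted p of 0.14 over 10 ratios, so none passes 0.05 in a design of this size.

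For Cd40 and Lta the groups overlapped. The log2 ratio of Cd40 to the B cell markers was -5.11, -5.61 and -9.95 without Dox against -7.15, -6.75 and -6.29 with Dox. The difference was 0.16 (exact two-sided permutation p = 1). The overlap came from replicate 6 alone, which had no Cd40 count and whose ratio rests on the 0.5 added to each count. Without it the 2 other libraries without Dox lay above the 3 with Dox (difference -1.37), the direction of the 3 genes above. The difference was 1.05 without replicate 4, 0.80 without replicate 5 and -0.060 without Dox replicate 12. Whether Cd40 or Lta differed from those 3 genes was not tested. The ratio of Lta to the B cell markers, also added later, was -7.25, -6.89 and -8.36 against -7.98, -7.38 and -8.26 (difference -0.37, exact two-sided permutation p = 0.5). Set against 16 T cell markers, whose sum fell, the log2 ratio of Lta rose from -12.9, -12.3 and -13.8 to -5.25, -4.44 and -5.13. The difference was 8.06 (exact two-sided permutation p = 0.1, adjusted p = 0.14 over 10 ratios). Its direction followed from the rise of Lta and the fall of the T cell sum given above, so this ratio adds no support. Without Dox it rests on 1 to 3 counts of Lta in a library and the 0.5 added. Of the 18 B cell markers, 1 had a smaller log2 fold change than Ltb or Tnfrsf13c, 2 a smaller one than Tnfrsf13b or Tnfsf13b, 3 than Cd40 and 4 than Lta.

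For Tnfsf13b the comparison was made with markers of monocytes, macrophages and dendritic cells, and was added after the data were seen. Its log2 ratio to their summed counts was -8.38, -9.46 and -9.43 without Dox against -6.96, -5.89 and -8.64 with Dox. Replicate 12 fell inside the range of the libraries without Dox (difference 1.92, exact two-sided permutation p = 0.2, adjusted p = 0.25 over 10 ratios). The difference was 1.29 without Dox replicate 11 and 2.66 without Dox replicate 12.

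**Figure D3:**
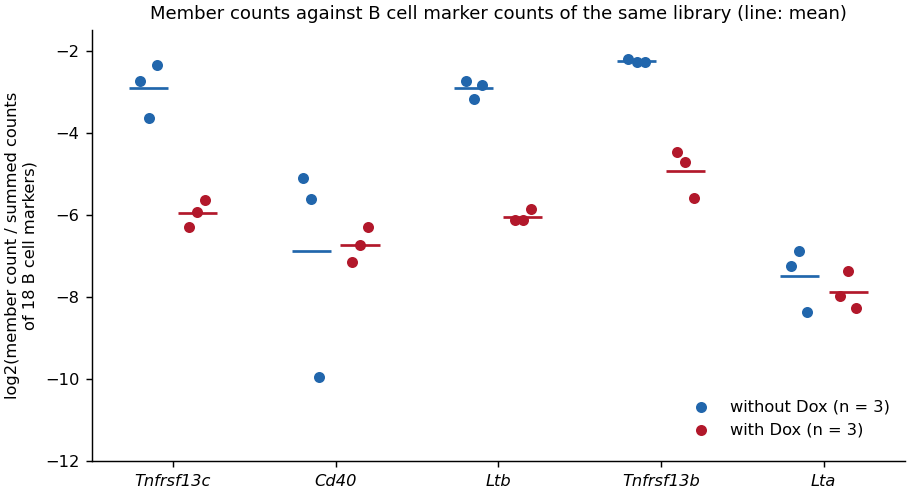
Log2 ratio of the counts of 5 members to the summed counts of 18 B cell markers in the same library, with 1 point per library, 3 libraries per group, and a line at the mean. Groups are apart and lower with Dox for Tnfrsf13c, Ltb and Tnfrsf13b, and overlap for Lta and, through replicate 6 with no Cd40 count, for Cd40.

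The rest of the pathway was described from 7 lists of 59 other genes, of which 52 were tested. With Dox 30 were higher and 4 lower, beside 23.6% and 22.1% of all tested genes. The median log2 fold change was 1.13, against 0.07 for all tested genes. Here too the filter on low counts favours genes that are high in 1 group. With at least 10 counts in every library, 27 pathway genes were higher and 3 lower. How many pathway genes that filter left to test is not given. Under it 2740 of all 10131 tested genes were higher and 2552 lower. Of the 7 genes not tested, Tnfsf11 and Tnfrsf12a had fewer counts in each library with Dox than in any without.

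None of the other ligands passed the threshold. Tnfsf14 (LIGHT, a second ligand of the lymphotoxin beta receptor) had a log2 fold change of -1.70 ± 1.12 (SE; adjusted p = 0.24, edgeR), and this was -2.98 without Dox replicate 10 (adjusted p = 0.11, edgeR). Tnfsf12 (TWEAK) had a log2 fold change of -1.83 ± 0.84 (SE; adjusted p = 0.10, edgeR). Cd40lg, the ligand of CD40, had 2, 0 and 15 counts without Dox against 1, 43 and 6 with Dox and was not tested. Among the receptors Tnfrsf1b, a TNF receptor, was higher, at 5.52, 12.4 and 5.93 normalized CPM without Dox against 59.3, 55.0 and 19.9 with Dox (log2 fold change 2.51 ± 0.47 (SE), adjusted p = 0.0019, edgeR). Tnfrsf14, the HVEM receptor, and Tnfrsf1a, a TNF receptor, did not pass (log2 fold change 0.14 and 0.57, adjusted p = 0.89 and 0.15, edgeR). Tnfrsf12a, the receptor of TWEAK, had 14, 3 and 3 counts without Dox and 0 in each library with Dox, and was not tested. Tnfrsf1a passed in 1 of 16 alternatives, by library size alone (0.88, adjusted p = 0.034, edgeR).

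Signal-carrying genes of the alternative NF-kB arm were all higher: 4 of 4. Map3k14, which encodes NIK, the kinase that starts this arm, was 3.43, 1.62 and 2.71 normalized CPM without Dox against 19.2, 26.7 and 37.7 with Dox (log2 fold change 3.40 ± 0.42 (SE), adjusted p = 0.00014, edgeR). Relb, the subunit that enters the nucleus in this arm, had a log2 fold change of 2.14 ± 0.39 (SE; adjusted p = 0.0016, edgeR). Nfkb2, its partner, and Chuk, the kinase under NIK, were higher by 1.82 ± 0.29 and 0.78 ± 0.20 (log2, SE; adjusted p = 0.00072 and 0.0091, edgeR). Chuk lost its call in 4 of 16 alternatives, with adjusted p-values up to 0.072 (edgeR).

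Of the 11 adaptor genes, 5 were higher, none was lower and 6 did not pass. The higher ones included Traf1, an adaptor that is itself a target of NF-kB (log2 fold change 3.14 ± 0.63 (SE), adjusted p = 0.0026, edgeR; 4.09 without replicate 5), and Birc3, a ubiquitin ligase that TRAF proteins recruit (2.70 ± 0.33 (SE), adjusted p = 0.00013, edgeR). The classical arm was mixed, with 6 of 12 higher and 4 lower. Rel, the c-Rel subunit, was 7.76, 3.85 and 6.78 normalized CPM without Dox against 51.2, 62.9 and 64.8 with Dox (log2 fold change 3.26 ± 0.30 (SE), adjusted p = 2.43e-05, edgeR). Malt1, a protease that links antigen receptors to NF-kB, was higher by 2.32 ± 0.30 (log2, SE; adjusted p = 0.00018, edgeR). The lower genes were Ikbkg (log2 fold change -1.70 ± 0.40 (SE), adjusted p = 0.0065, edgeR), Tnfaip3 (-1.82 ± 0.65 (SE), adjusted p = 0.042, edgeR), Nfkb1 and Nfkbib, so the subunit Nfkb1 and the subunit Rel moved in opposite directions. The call of Tnfaip3 was lost in 7 of 15 alternatives, with adjusted p-values up to 0.13 (edgeR), and its log2 fold change was -2.63 without Dox replicate 10. Nfkbia (log2 fold change 0.73 ± 0.27 (SE), adjusted p = 0.052, edgeR) and Bcl10 did not pass; Nfkbia passed in 8 of 16 alternatives, among them without Dox replicate 12 (adjusted p = 0.00012, edgeR).

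Genes that CD40 and BAFF are known to raise in B cells were higher in 10 of 14 tested (of 16), and none was lower; Cd80 and Ccl22 were not tested. Icosl, the ligand of ICOS on helper T cells, went from 1, 1 and 4 counts to 279, 159 and 129 counts (log2 fold change 6.04 ± 0.65 (SE), adjusted p = 6.20e-05, edgeR). Resting on so few counts without Dox, this value was 6.89 without replicate 6. Cd83, an activation marker, went from 4.92, 4.05 and 3.22 to 34.3, 43.6 and 60.1 normalized CPM (log2 fold change 3.49 ± 0.33 (SE), adjusted p = 2.86e-05, edgeR). B cell markers rose in the same libraries, as given above, and their part in this list was not tested.

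Of the 8 stromal targets of lymphotoxin, 5 were tested and 4 were higher: Ccl21a, Ccl19, Cxcl13 and Madcam1. Their receptor Ltbr did not pass the threshold. The 3 genes not tested were Tnfsf11, Glycam1 and Chst4. Tnfsf11, which encodes the cytokine RANKL, lay the other way, with 23, 8 and 17 counts without Dox against 5, 0 and 0 with Dox (ratio of summed counts 0.074, exact 95% interval 0.023 to 0.19, counting error only). Glycam1 had 10, 1 and 0 counts against 0, 0 and 16, and Chst4 had 0 in all 6 libraries. Ccl21a, a chemokine of T cell zones, went from 4.03, 0.61 and 2.20 to 219, 191 and 269 normalized CPM (log2 fold change 6.56 ± 0.43 (SE), adjusted p = 3.39e-06, edgeR). Reads of Ccl21a can be shared with near-identical gene copies, so its level is uncertain. Ccl19, a chemokine of the same receptor, went from 2.54, 1.01 and 0.68 to 137, 110 and 141 normalized CPM (log2 fold change 6.45 ± 0.38 (SE), adjusted p = 2.40e-06, edgeR). Without replicate 4 the log2 fold changes were 7.23 for Ccl21a and 7.21 for Ccl19. Cxcl13, which draws B cells into follicles, went from 2.39, 2.23 and 2.88 to 110, 118 and 118 normalized CPM. Vcam1, an adhesion molecule of stroma and macrophages, was 249, 256 and 293 against 345, 379 and 280 normalized CPM and did not pass (adjusted p = 0.13, edgeR); it passed in 3 of 16 alternatives, with adjusted p-values from 0.013 by library size alone to 0.042 (edgeR), one of them without Dox replicate 12 (adjusted p = 0.019). Madcam1 is also 1 of the 13 stromal markers given above.

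**Figure D4:**
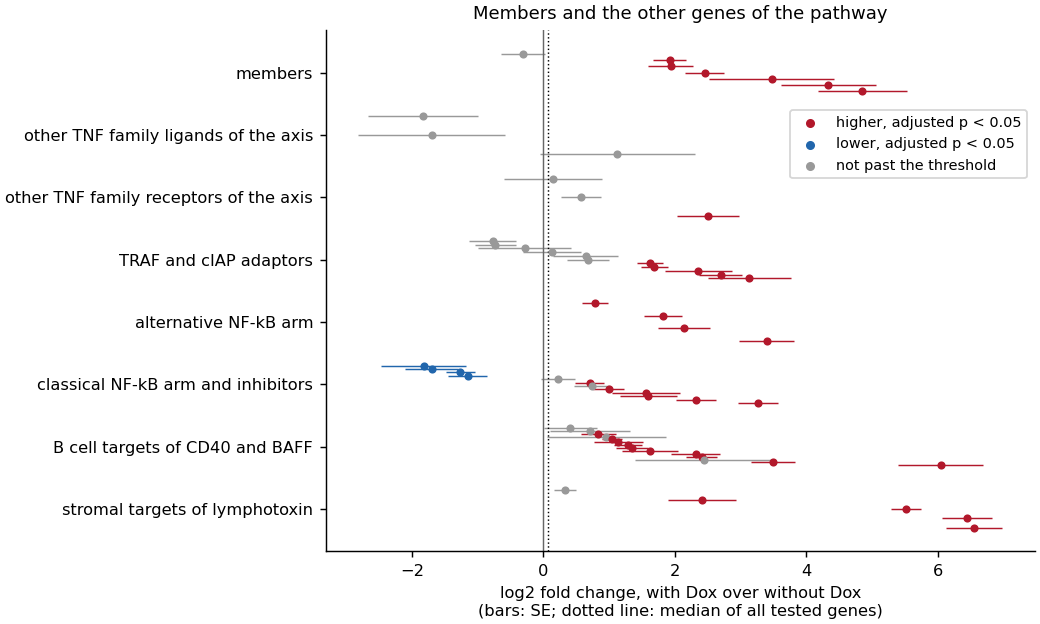
Log2 fold change with Dox over without Dox for the 7 tested members and 52 other pathway genes by list, with bars of 1 SE, from 3 libraries per group. The 4 genes of the alternative NF-kB arm are all higher, the classical arm holds 6 higher and 4 lower, and 3 stromal targets of lymphotoxin lie beyond 5 on the log2 scale.

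Genes with the profile most like that of a member were found by the root mean square difference of centred log2(CPM + 0.5) over the 6 libraries, among genes within 2 log2 CPM of its level. For Ltb they were Kif1b (0.10) and Plekha2 (0.13), and for Tnfrsf13b Zfp526 and Npc1 (0.15 each). For Tnfrsf13c they were Atp8b1 and Ifi208 (0.19 each), and for Lta Ctsg (0.22) and Susd3 (0.24). For Cd40 they were Myom1 and Lrrk2 (0.31 each), for Tnfsf13b Gm41344 (0.30) and Lipo3 (0.33), and for Ltbr Atp6v1h and Nek4 (0.07 each). No member was the nearest profile of another.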

How the data were processed

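Per the labels' protocols, RNA of spleen was turned into libraries with a 3′ mRNA kit (QuantSeq, forward). The authors deposited raw counts per Entrez gene ID, with 1 column per library; STAR, featureCounts and GRCm38 are named in the submitters' processing notes, and versions, annotation, strand setting and treatment of shared reads are not given in the sources used here. Groups came from titles, and 0 sample columns were left over. Symbols and locations came from RefSeq (GRCm38.p6): 39374 of 40808 IDs (96.5%) matched.

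Counts were filtered with filterByExpr (minimum count 10, total 15), scaled by TMM and tested with edgeR 4.0.16 in R 4.3.3 (glmQLFit, glmQLFTest) on all 6 libraries without covariates, after a check on simulated counts. SE is the log2 fold change over the root of F. Normalized CPM use TMM-scaled totals. Within-library ratios had 0.5 added to each count and an exact permutation test. The planned ratio of Tnfsf13b to Tnfsf13 is not given, since Tnfsf13 was at the floor. Alternatives were other scalings and filters, DESeq2 1.42.0, limma 3.58.1 (voom), a robust fit, gene classes left out, a threshold of 0.01 and each library left out. Intervals cover counting error only, since reads without molecular identifiers are not independent molecules.

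Members and lists were chosen with earlier results of these data known. Named were all members, up to 2 called pathway genes per list and direction with the largest change, and the 2 nearest profiles of each tested member. Other pathway genes named, the cell type markers named, Usp22, Tnfsfm13 and Tnfsf13os were chosen after their values were seen.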

Additional observations from a re-analysis of the deposited data

How the results depend on the processing

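No paired analysis was possible because no replicate number occurs in both groups. The 6 members were called higher in the alternatives except where given here: 3 were called with at least 10 counts in every library, a filter that leaves 4 members to test, and 5 where Tnfsf13b was lost (limma-voom, a threshold of 0.01, and without replicate 5, 6 or 11). Tnfsf13b was 2.999 on the log2 scale with limma-voom (adjusted p = 0.19), and 2.60 to 3.93 when each library was left out in turn; with limma-voom and 1 weight per group, chosen after seeing the data, its adjusted p was 0.027. Ltbr reversed to 0.0013 by library size alone, where the median of all genes moved by 0.31. The difference in the ratio of Cd40 to B cell markers reversed to -0.21 with 1 added to each count and to -0.32 with the mean of log2 marker counts, and ran from -1.37 to 1.05 with a library left out. At an adjusted p under 0.01, 2200 genes were higher and 2 pathway genes lower. Tnfrsf14 reversed to -0.58 with limma-voom and -0.57 with group weights (-0.44 to 0.66 with a library left out). Bcl10 ran from -0.041 to 0.40 with a library left out and was 0.53 by library size alone. Neither gene passed the threshold. With a library left out, 4794 to 7025 genes were called, 22 to 33 pathway genes were higher and 3 to 6 lower. The strict filter gave no value for Tnfsf13b, Lta and Cd40. Depth limits Tnfsf13, Tnfrsf17 and the levels of Tnfsf13b, Lta and Cd40 without Dox.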
